A study of Mus musculus with 16 samples.

Results

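The proteasome genes described here are those of the barrel that cuts proteins, of the particle that feeds it, and of their activators and assembly chaperones. Their members were the probes whose gene symbol starts with Psma, Psmb, Psmc, Psmd, Psme or Psmg, leaving out the immunoproteasome genes Psmb8, Psmb9 and Psmb10. This gave 63 of the 25697 probes of the array, for 42 genes. Of these, 3 probes belong to Psmc3ip and Psme3ip1, which share the start of the name but encode proteins that bind another protein and are no subunits, so they are given apart. The other 60 probes stand for 40 genes, and 53 of them, for 38 genes, had a signal above the negative controls of the array (detection p at most 0.04) in 2 or more of the 4 hearts of any group and were tested. The single probes of Psma1 and Psma6, genes of the outer ring of the barrel, were not above background on any array. Nor were the first probe of Psma3, the third of Psmb2 and the second of Psmd5 and of Psmd11 (probes of a gene are numbered in the order of their identifiers). An undetected probe does not show that its gene is silent. The second Psma3 probe had group means of 14.00 to 14.11. The second probe of Psmd9 was detected on 1 CX C57.YA, 0 sham C57.YA, 1 CX C57BL/6J and 1 sham C57BL/6J arrays. Psma8, Psmb11, Psmd3 and Psmg4 were not matched to a probe and were not analysed here.

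RNA of the cardiac left ventricle of 16 male mice aged 12 weeks was profiled on Illumina MouseRef-8 v2.0 arrays, with 1 mouse per array and 4 mice per group. The groups were castrated (CX) C57.YA, sham-operated C57.YA, CX C57BL/6J and sham-operated C57BL/6J mice. C57.YA mice have the genome of C57BL/6J with the chromosome Y (chrY) of A/J mice, and each strain is inbred. Surgery preceded puberty, so that CX mice missed the rise of testosterone, and sham mice kept it. The comparisons ask what castration changed within each strain, how the strains differ within each type of surgery, and whether castration acted differently by strain (the interaction). Differences are CX minus sham or C57.YA minus C57BL/6J on the log2 scale of the quantile-normalized signal, with their standard error (SE).

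The proteasome is the main protease of the cytosol and the nucleus and degrades proteins tagged with ubiquitin. Its core particle is a stack of rings in which the outer alpha subunits (Psma genes) gate the entry and the inner beta subunits (Psmb genes) include the proteolytic sites. The regulatory particle caps the core, binds ubiquitin, removes it and unfolds the substrate. It is built of a ring of ATPases (Psmc genes), which unfold, and of non-ATPase subunits (most Psmd genes). In heart muscle the proteasome turns over sarcomere and signaling proteins.

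Between 11435 and 12212 probes were detected per array, and log2 signals of arrays of a group correlated with r from 0.9911 to 0.9966. The markers of heart muscle cells (Myh6, Tnni3, Actc1, Myl2 and Myl3) were detected on all 16 arrays, and their mean log2 signal lay between 15.27 and 15.44 on every array. The 4 atrial muscle markers (Myl4, Myl7, Sln and Mybphl), which a ventricle should lack, averaged 9.23 to 11.16 on the CX C57BL/6J arrays, against 6.99 to 7.65 on the arrays of the other groups. Only Myl4 was detected on all 16 arrays. Mean signals of the macrophage markers measured (Lyz2 and F13a1) ran from 10.38 to 11.07 on CX C57BL/6J arrays and from 11.15 to 11.41 on sham C57BL/6J arrays. Smooth muscle markers (Myh11, Acta2 and Cnn1) ran from 9.51 to 9.80 on CX C57.YA arrays and from 9.91 to 10.17 on sham C57.YA arrays. In C57BL/6J they ran from 9.325 to 9.798 on CX arrays and from 9.726 to 10.04 on sham arrays. Cnn1 was detected on 0 arrays. Mesothelial markers (Upk3b, Msln and Krt19), of which none was detected on 12 or more arrays, ran from 6.24 to 6.29 on CX C57.YA arrays and from 6.73 to 7.14 on sham C57.YA arrays. Within the sham C57.YA group the arrays stood in pairs. Deviations from the group mean correlated with r = 0.25 between arrays 1 and 2 and r = 0.17 between arrays 3 and 4, against -0.63 to -0.55 across these pairs. Deviations from a group's own mean sum to 0, so some negative correlation is forced. The other groups were not examined in this way. In such whole-tissue RNA, more cells of a type and more RNA per cell cannot be told apart.

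Castration in C57.YA hearts went with higher signals of the proteasome. Of the 53 probes, 43 (81.1%) had a positive difference, against 49.9% of all 12764 probes tested, and their median difference was 0.10 while that of all probes was 0.00. Of these probes, 9 were called higher at an adjusted p under 0.1 (17% of 53, against 9.55% of all probes tested) and 4 lower (7.55%, against 10.1%). Those called higher were Psma5, the first probe of Psma7, Psmc6, both tested probes of Psmd11, the second probe of Psmd6, both probes of Psmd7 and Psmd9. Those called lower were Psme3, the second probe of Psme4, the first of Psmg2 and Psmg3, none of them a subunit of the core or the regulatory particle. With each array scaled to a common median in place of quantile normalization, 8 were called higher and 0 lower (all probes 1243 and 448). The 8 were among the 9 called higher before, without Psma5, and no lower call was kept.

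In C57BL/6J hearts a similar number of probes was above 0, with fewer calls. There 42 of 53 (79.2%) had a positive difference, against 50.6% of all probes, with a median of 0.08. After castration 3 of the 53 probes rose (5.66%, against 4.1% of all probes), those of Psmc5 (first probe), Psmd4 and Psmd10 (second probe), and 1 fell (1.89%, against 4.71%), the second probe of Psme4. These shares lie near those of all probes. With median scaling none of the 4 kept its call, and 1 other probe, the first of Psmd10, was called higher and 0 lower (all probes 366 and 197). In a fit of the 8 C57BL/6J arrays alone 0 were called higher and 2 lower (all probes 438 and 539). Without a detection filter 0 were called higher and 1 lower (all probes 360 and 449). The castration comparisons of the strains share no array, and 38 of the 53 probes (71.7%) were above 0 in both, against 30.4% of all probes. Of 16 probes called in either, 1, the second of Psme4, was called in both strains, against 567 of 3067 among all probes tested.

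Medians of the castration differences were taken for the core, the regulatory particle, the activators and the assembly chaperones. Over these parts they ran from 0.07 to 0.10 in C57.YA and from -0.05 to 0.12 in C57BL/6J. No difference between parts was tested. In the core particle all 16 probes of 12 genes were above 0 in C57.YA, with a median of 0.10 and a highest value of 0.25, and 15 of 16 in C57BL/6J, with a median of 0.10. These core counts were 14 to 16 and 14 to 16 in every alternative processing tried on those probes, leave-one-out included, except with the atrial markers as a covariate, where 9 of 16 were above 0 in C57BL/6J. Median scaling, with 16 of 16 in each strain, also moved all probes. Of the 12764 tested, 8185 were then above 0 in C57.YA and 7881 in C57BL/6J, against 6371 and 6457 before. In the regulatory particle 17 of 22 probes were above 0 in C57.YA (median 0.10) and 18 of 22 in C57BL/6J (median 0.07). Within it the base ATPases had medians of 0.06 in C57.YA and 0.075 in C57BL/6J, and the non-ATPases 0.14 and 0.04. No probe of the core or the regulatory particle was called lower in either strain, against 10.1% of all probes in C57.YA and 4.71% in C57BL/6J. Activators had 4 of 6 probes above 0 in C57.YA (median 0.07) and 3 of 6 in C57BL/6J (median -0.05). Assembly chaperones had 6 of 9 above 0 in each strain (medians 0.09 in C57.YA and 0.12 in C57BL/6J).

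**Figure D1:**
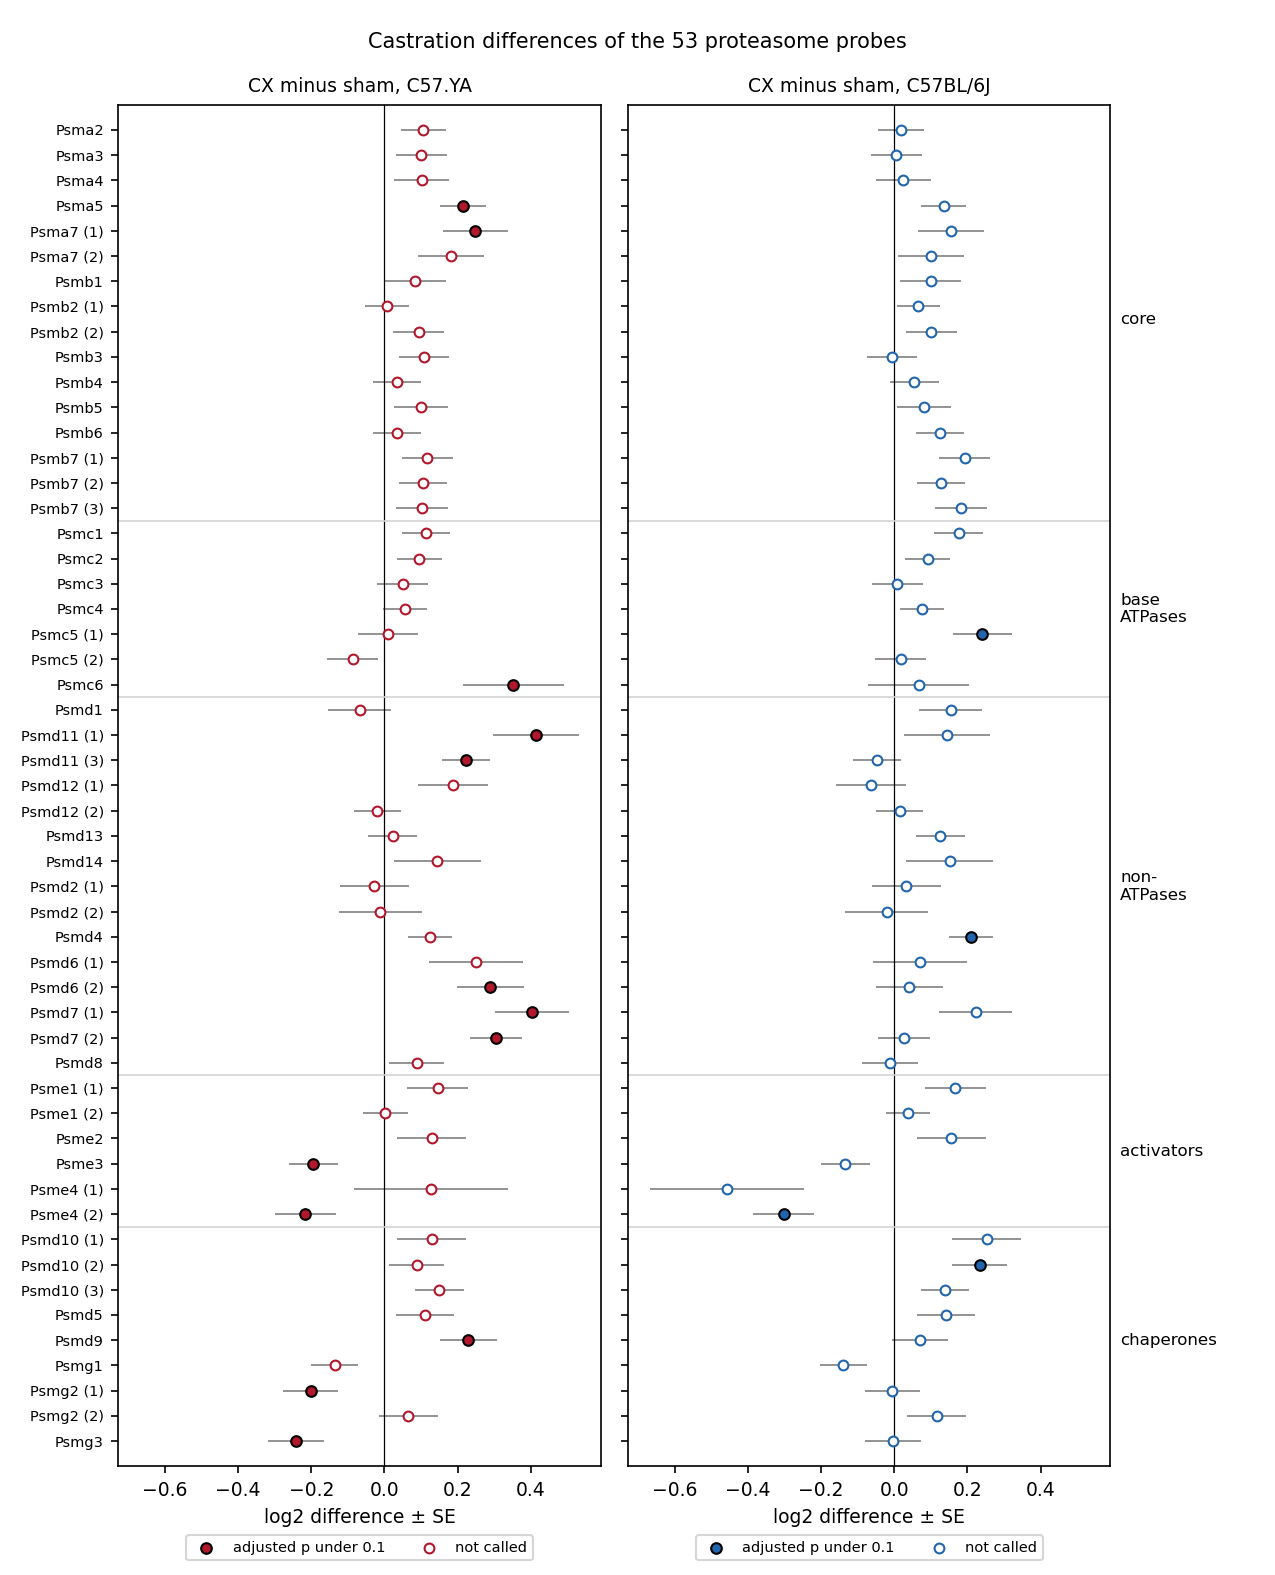
Log2 differences of CX minus sham hearts, with SE, of the 53 tested proteasome probes in C57.YA (left) and C57BL/6J (right), ordered by part. Numbers in brackets tell probes of 1 gene apart and filled points were called. Core probes lie right of 0 in C57.YA without exception, and the second Psme4 probe lies left of 0 in both strains.

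The median over the probes of a part, each taken as the deviation from its own mean over the 16 arrays, shows the same data mouse by mouse. For the core it was 0.08, 0.02, 0.08 and 0.09 in CX C57.YA hearts, against -0.03, -0.09, 0.00 and 0.01 in sham C57.YA hearts, and -0.01, 0.11, 0.05 and -0.03 in CX C57BL/6J hearts, against -0.03, -0.04, -0.16 and -0.03 in sham C57BL/6J hearts. The CX arrays lay above the sham arrays of their own strain, but in C57BL/6J the lowest CX array and the highest sham array were level to 2 decimals. For the 7 probes of the base ATPases it was 0.02, 0.03, 0.01 and -0.01 in CX C57.YA hearts, against -0.06, -0.06, -0.08 and -0.09 in sham C57.YA hearts, and 0.07, 0.06, 0.05 and 0.13 in CX C57BL/6J hearts, against -0.01, -0.04, -0.01 and -0.04 in sham C57BL/6J hearts. Here the CX arrays lay above the sham arrays of their own strain without overlap, by small steps. For the 15 probes of the non-ATPases it was 0.12, 0.17, -0.07 and 0.17 in CX C57.YA hearts, against -0.01, -0.07, -0.10 and -0.03 in sham C57.YA hearts, and 0.01, 0.02, -0.13 and 0.04 in CX C57BL/6J hearts, against -0.06, 0.02, -0.05 and -0.04 in sham C57BL/6J hearts, where CX C57.YA replicate 3 lay among the sham arrays and the C57BL/6J groups overlapped.

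**Figure D2:**
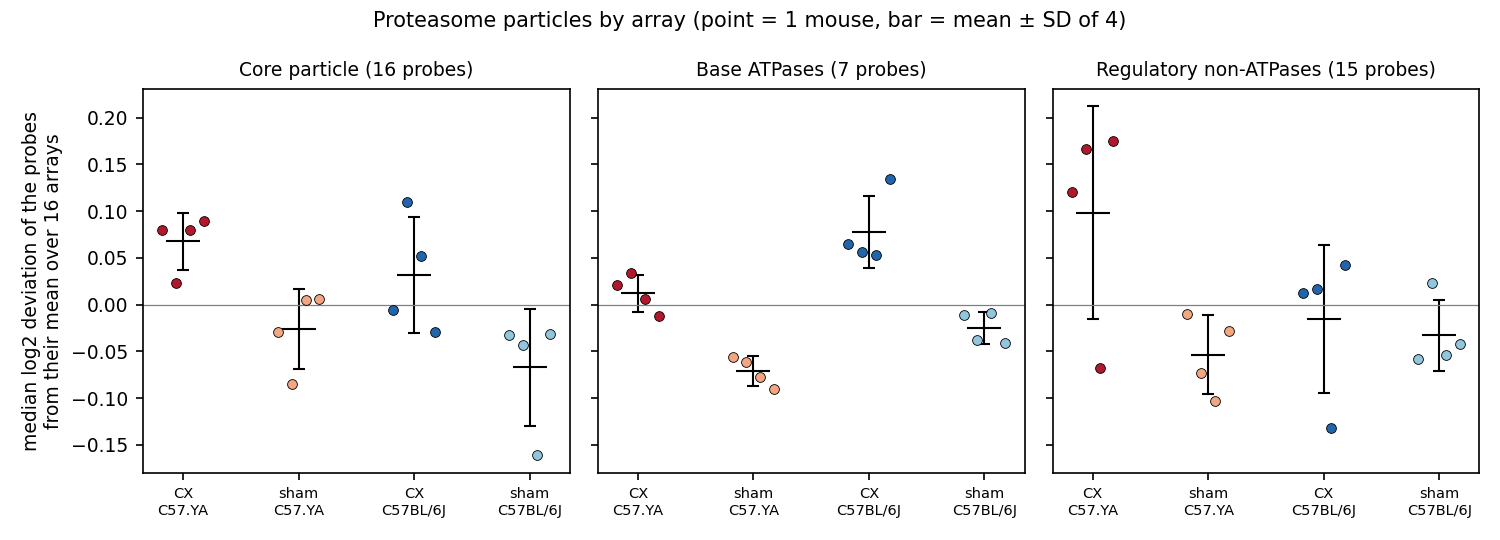
Median log2 deviation of the probes of the core particle, the base ATPases and the regulatory non-ATPases from their mean over 16 arrays, by group. Points are mice and bars the mean ± SD of 4 arrays. The base ATPases of CX arrays are above those of sham arrays in each strain, and the core of CX C57.YA arrays is above that of sham C57.YA arrays.

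In mouse and human cells the transcription factor Nfe2l1 induces proteasome genes through antioxidant response elements, and the CCAAT box is a common promoter element. The RefSeq promoter table (build GRCm38.p6), with 250 bases before to 50 after each start, held 32 of the 38 tested genes, while Psmb1, Psmb2, Psmb7, Psmc3, Psmd7 and Psmg2 were not among them. The core of the antioxidant response element, TGACNNNGC, searched on both strands, was in the window of 6 of these 32 genes (18.8%), namely Psmb5, Psmb6, Psmc6, Psmd9, Psmd12 and Psme4, against 14% of the 27025 genes of the table. The CCAAT box was in 10 of 32 (31.2%), against 41.1% of all genes, and no member held both. The 250 bases before the start are printed for the 4 genes that show the motif in a called subunit (Psmc6) and chaperone (Psmd9) and in the uncalled proteolytic subunits Psmb5 and Psmb6, with the match in capitals, read 5′ to 3′ on the strand of the gene. The match of Psmc6 is on the opposite strand, and those of the other 3 on the strand of the gene, beginning 31 (Psmd9), 47 (Psmb5) and 9 (Psmb6) bases before the start.
Psmd9, chr5:123227940-123228189, plus strand: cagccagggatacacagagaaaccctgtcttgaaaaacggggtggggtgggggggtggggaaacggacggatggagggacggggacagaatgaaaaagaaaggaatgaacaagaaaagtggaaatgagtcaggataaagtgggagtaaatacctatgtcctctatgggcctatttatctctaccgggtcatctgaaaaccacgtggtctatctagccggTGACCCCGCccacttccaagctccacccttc
Psmc6, chr14:45329574-45329823, plus strand: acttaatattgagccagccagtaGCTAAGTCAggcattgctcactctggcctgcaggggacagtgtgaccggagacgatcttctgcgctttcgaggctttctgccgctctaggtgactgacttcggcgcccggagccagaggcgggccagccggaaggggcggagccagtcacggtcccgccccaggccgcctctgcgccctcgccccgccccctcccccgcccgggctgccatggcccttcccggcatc
Psmb5, chr14:54617996-54618245, minus strand: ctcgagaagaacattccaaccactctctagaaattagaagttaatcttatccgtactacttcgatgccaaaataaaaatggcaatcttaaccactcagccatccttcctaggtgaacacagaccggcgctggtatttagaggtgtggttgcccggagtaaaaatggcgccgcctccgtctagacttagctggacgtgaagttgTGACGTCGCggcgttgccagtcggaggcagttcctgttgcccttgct
Psmb6, chr11:70525107-70525356, plus strand: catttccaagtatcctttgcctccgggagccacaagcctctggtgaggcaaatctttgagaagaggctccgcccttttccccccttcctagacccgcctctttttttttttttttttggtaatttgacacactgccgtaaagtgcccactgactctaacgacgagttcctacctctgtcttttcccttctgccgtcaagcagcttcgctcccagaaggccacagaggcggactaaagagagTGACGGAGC

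Psma5 and Psma7 encode alpha subunits of the outer rings and were the core genes that castration raised in C57.YA. Psma5 (ILMN_2962606) had log2 signals of 13.41, 13.29, 13.44 and 13.41 in CX C57.YA hearts, against 13.20, 13.17, 13.12 and 13.20 in sham C57.YA hearts, and of 13.49, 13.50, 13.56 and 13.49 in CX C57BL/6J hearts, against 13.24, 13.36, 13.44 and 13.46 in sham C57BL/6J hearts. All CX C57.YA values exceeded all sham C57.YA values, and CX C57BL/6J values those of sham C57BL/6J hearts. The castration difference was 0.21 (SE 0.06, adjusted p = 0.0274) in C57.YA and 0.13 (SE 0.06, adjusted p = 0.238) in C57BL/6J, and leaving out any 1 array kept the first call, which median scaling ended (adjusted p = 0.106). Psma7 (ILMN_2630328) had log2 signals of 12.22, 12.25, 12.39 and 12.42 in CX C57.YA hearts, against 11.91, 11.93, 12.14 and 12.31 in sham C57.YA hearts, and of 12.00, 12.24, 12.18 and 12.15 in CX C57BL/6J hearts, against 12.08, 11.97, 11.85 and 12.06 in sham C57BL/6J hearts. The difference of this first of 2 Psma7 probes was 0.25 (SE 0.09, adjusted p = 0.0711) in C57.YA, where sham replicate 4 lay among the CX values, and the call was lost without sham C57.YA replicate 1 or 2 or CX C57.YA replicate 3 or 4 (range of the difference without 1 array 0.20 to 0.33). Without both sham C57.YA replicates 1 and 2 it was 0.10. The other Psma7 probe had a difference of 0.18 (adjusted p = 0.193).

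The proteolytic beta subunits were not called in any comparison. Psmb5 carries the chymotrypsin-like site. Psmb5 (ILMN_2613469) had log2 signals of 11.70, 11.56, 11.59 and 11.61 in CX C57.YA hearts, against 11.52, 11.59, 11.50 and 11.45 in sham C57.YA hearts, and of 11.49, 11.61, 11.37 and 11.42 in CX C57BL/6J hearts, against 11.50, 11.38, 11.21 and 11.48 in sham C57BL/6J hearts. Its groups overlapped, and castration differences were 0.10 (SE 0.07, adjusted p = 0.4) in C57.YA and 0.08 (SE 0.07, adjusted p = 0.599) in C57BL/6J. Psmb6 carries the caspase-like site. Psmb6 (ILMN_2895862) had log2 signals of 13.14, 13.21, 13.19 and 13.24 in CX C57.YA hearts, against 13.17, 13.09, 13.17 and 13.22 in sham C57.YA hearts, and of 13.16, 13.33, 13.23 and 13.22 in CX C57BL/6J hearts, against 13.08, 13.18, 12.96 and 13.20 in sham C57BL/6J hearts. Its groups overlapped as well, with differences of 0.03 and 0.13. Psmb7, with the trypsin-like site, has 3 probes. Psmb7 (ILMN_1221340) had log2 signals of 13.46, 13.38, 13.34 and 13.50 in CX C57.YA hearts, against 13.40, 13.36, 13.32 and 13.12 in sham C57.YA hearts, and of 13.52, 13.51, 13.44 and 13.43 in CX C57BL/6J hearts, against 13.36, 13.27, 13.19 and 13.32 in sham C57BL/6J hearts (first probe). Psmb7 (ILMN_1233153) had log2 signals of 13.37, 13.32, 13.35 and 13.31 in CX C57.YA hearts, against 13.26, 13.25, 13.26 and 13.16 in sham C57.YA hearts, and of 13.27, 13.42, 13.34 and 13.21 in CX C57BL/6J hearts, against 13.27, 13.24, 13.05 and 13.18 in sham C57BL/6J hearts (second probe). Psmb7 (ILMN_2836147) had log2 signals of 11.64, 11.59, 11.71 and 11.76 in CX C57.YA hearts, against 11.53, 11.45, 11.63 and 11.68 in sham C57.YA hearts, and of 11.60, 11.65, 11.73 and 11.47 in CX C57BL/6J hearts, against 11.42, 11.43, 11.39 and 11.49 in sham C57BL/6J hearts (the third probe). CX C57BL/6J values lay above sham C57BL/6J values on the first probe, and CX C57.YA values above sham C57.YA values on the second, and all other pairs overlapped. In the order of the probes the differences were 0.12, 0.11 and 0.10 in C57.YA and 0.19, 0.13 and 0.18 in C57BL/6J (smallest adjusted p = 0.119). In C57BL/6J the first and the third probe each passed the threshold in 1 of 16 fits without 1 array (adjusted p = 0.0785 and 0.0743, limma).

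The base ATPases form the hexamer that unfolds substrates and opens the gate of the core. Psmc6 was the base gene called in C57.YA. Psmc6 (ILMN_2631558) had log2 signals of 8.16, 8.49, 8.19 and 8.15 in CX C57.YA hearts, against 7.76, 8.10, 7.86 and 7.87 in sham C57.YA hearts, and of 8.07, 7.85, 7.58 and 8.32 in CX C57BL/6J hearts, against 8.08, 7.85, 8.06 and 7.56 in sham C57BL/6J hearts. CX C57.YA values exceeded sham C57.YA values without overlap, with replicate 2 the highest, and the difference was 0.35 (SE 0.14, adjusted p = 0.099), against 0.07 (SE 0.14, adjusted p = 0.844) in C57BL/6J. The call lies at the threshold and was lost without any of 12 of the 16 arrays, when the difference ranged from 0.27 to 0.42. Psmc5 was the base gene called in C57BL/6J. Psmc5 (ILMN_1220632) had log2 signals of 11.60, 11.72, 11.54 and 11.59 in CX C57.YA hearts, against 11.79, 11.66, 11.50 and 11.46 in sham C57.YA hearts, and of 11.72, 11.99, 11.77 and 11.81 in CX C57BL/6J hearts, against 11.67, 11.64, 11.54 and 11.47 in sham C57BL/6J hearts. On this first probe the C57.YA groups overlapped (0.01, SE 0.08, adjusted p = 0.952), and CX C57BL/6J values exceeded sham C57BL/6J values without overlap (0.24, SE 0.08, adjusted p = 0.0955). The call was lost without any of 9 arrays (0.19 to 0.28). The second Psmc5 probe did not move alike, with differences of -0.09 in C57.YA and 0.02 in C57BL/6J.

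The largest castration differences of the proteasome in C57.YA were in the lid, the part of the regulatory particle that removes ubiquitin. Psmd7 is the partner subunit that holds the deubiquitinase Psmd14 in place. Psmd7 (ILMN_1220284) had log2 signals of 11.87, 11.62, 11.73 and 11.75 in CX C57.YA hearts, against 11.26, 11.10, 11.49 and 11.51 in sham C57.YA hearts, and of 11.47, 11.40, 11.18 and 11.27 in CX C57BL/6J hearts, against 11.32, 11.11, 11.09 and 10.90 in sham C57BL/6J hearts. Psmd7 (ILMN_2630438) had log2 signals of 12.73, 12.63, 12.71 and 12.71 in CX C57.YA hearts, against 12.37, 12.19, 12.45 and 12.55 in sham C57.YA hearts, and of 12.34, 12.30, 12.30 and 12.41 in CX C57BL/6J hearts, against 12.26, 12.33, 12.36 and 12.29 in sham C57BL/6J hearts. On the first and on the second probe each CX C57.YA value exceeded each sham C57.YA value, and the C57BL/6J groups overlapped. The differences were 0.40 (SE 0.10, adjusted p = 0.0114) and 0.30 (SE 0.07, adjusted p = 0.00714) in C57.YA, and 0.22 (SE 0.10, adjusted p = 0.224) and 0.03 (SE 0.07, adjusted p = 0.88) in C57BL/6J. Both C57.YA calls were kept without any 1 array. Without sham C57.YA replicates 1 and 2, the pair with the lower values, the differences were 0.24 and 0.20 and neither was called. Psmd14 itself had differences of 0.14 and 0.15 in C57.YA and C57BL/6J (adjusted p = 0.462 and 0.526).

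Psmd11 is a scaffold subunit of the lid that clamps it to the core and has been tied to proteasome assembly in stem cells and in worms. Psmd11 (ILMN_1214057) had log2 signals of 8.66, 8.90, 8.64 and 8.99 in CX C57.YA hearts, against 8.34, 8.52, 8.22 and 8.46 in sham C57.YA hearts, and of 8.48, 8.43, 8.53 and 8.82 in CX C57BL/6J hearts, against 8.27, 8.61, 8.15 and 8.65 in sham C57BL/6J hearts. Psmd11 (ILMN_2888116) had log2 signals of 10.28, 10.11, 10.16 and 10.14 in CX C57.YA hearts, against 9.95, 9.87, 9.99 and 9.99 in sham C57.YA hearts, and of 9.85, 9.75, 9.81 and 9.82 in CX C57BL/6J hearts, against 9.81, 9.97, 9.92 and 9.72 in sham C57BL/6J hearts. On both of these probes, the first and the third, CX C57.YA values exceeded sham C57.YA values without overlap, whereas C57BL/6J values overlapped. The differences in C57.YA were 0.41 (SE 0.12, adjusted p = 0.0235) and 0.22 (SE 0.07, adjusted p = 0.0312), and those in C57BL/6J were 0.14 and -0.05. Without sham C57.YA replicates 1 and 2 the first probe kept its call (0.46), and the third lost it (0.18), as it did without CX C57.YA replicate 1 (lowest of the differences without 1 array 0.19).

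Psmd6, another scaffold subunit of the lid, was called in C57.YA on its second probe. Psmd6 (ILMN_1254132) had log2 signals of 8.27, 8.65, 8.19 and 8.47 in CX C57.YA hearts, against 8.09, 8.19, 8.02 and 8.15 in sham C57.YA hearts, and of 8.32, 8.31, 8.09 and 8.45 in CX C57BL/6J hearts, against 8.20, 8.32, 8.21 and 8.28 in sham C57BL/6J hearts. CX C57.YA values lay above sham C57.YA values, with CX replicate 3 level to 2 decimals with the highest sham value, and the C57BL/6J groups overlapped. The difference was 0.29 (SE 0.09, adjusted p = 0.0433) in C57.YA and 0.04 in C57BL/6J, and without CX C57.YA replicate 2 or 4 the call was lost (0.21 at the lowest). The first Psmd6 probe had 0.25 and 0.07. Psmd4 is the receptor subunit that binds ubiquitin chains. Psmd4 (ILMN_1228630) had log2 signals of 13.61, 13.72, 13.68 and 13.58 in CX C57.YA hearts, against 13.56, 13.56, 13.53 and 13.45 in sham C57.YA hearts, and of 13.79, 13.83, 13.75 and 13.77 in CX C57BL/6J hearts, against 13.56, 13.67, 13.51 and 13.55 in sham C57BL/6J hearts. CX values exceeded the sham values of their own strain without overlap. The difference was not called in C57.YA (0.12, SE 0.06, adjusted p = 0.183) and called in C57BL/6J (0.21, SE 0.06, adjusted p = 0.0468). The call was lost without CX C57BL/6J replicate 2 or sham C57BL/6J replicate 3 or 4 (0.19 to 0.24). Of the remaining regulatory genes, Psmc1, Psmc2, Psmc3, Psmc4, Psmd1, Psmd2, Psmd8, Psmd12, Psmd13 and Psmd14 were not called, with differences between -0.07 and 0.19 in C57.YA and between -0.06 and 0.18 in C57BL/6J.

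**Figure D3:**
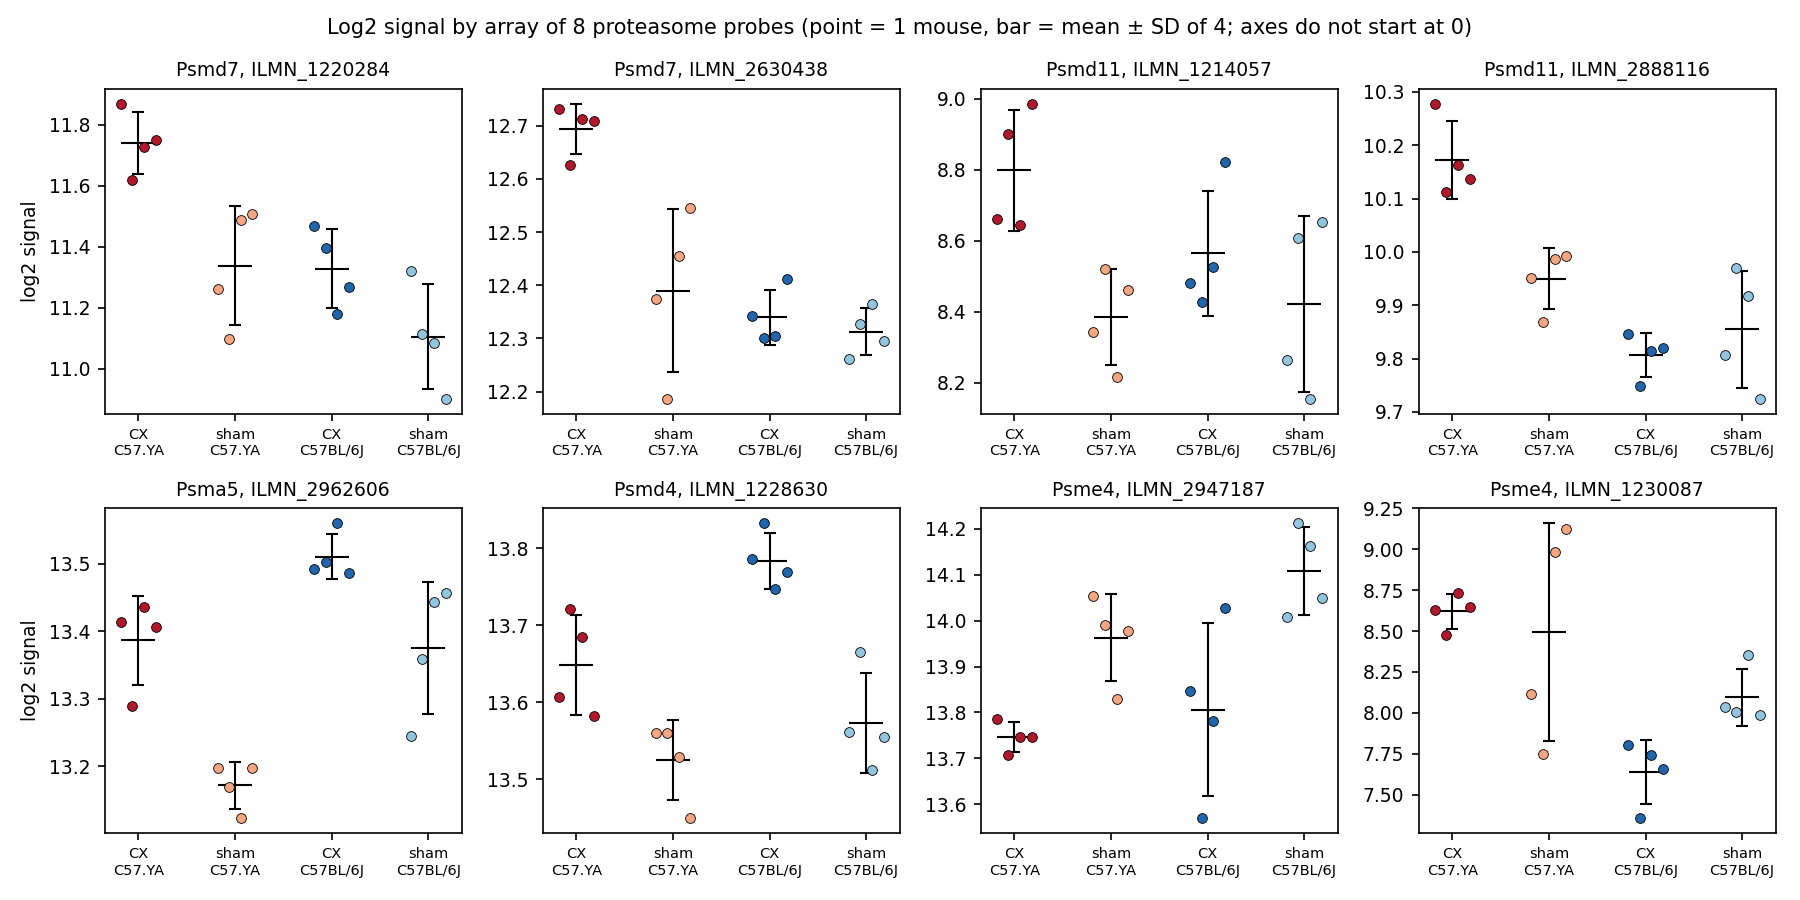
Log2 signal of 8 proteasome probes by group, with a point for each mouse and the mean ± SD of 4. Both Psmd7 probes and the Psmd11 probe ILMN_2888116 are highest in CX C57.YA hearts, and the 2 Psme4 probes differ in the C57.YA groups.

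The activators cap the core without binding ubiquitin. Psme1 and Psme2 encode the interferon-inducible activator, which favors peptides for antigen presentation, and none of their probes was called. Psme1 (ILMN_2671204) had log2 signals of 11.66, 11.82, 11.84 and 11.95 in CX C57.YA hearts, against 11.62, 11.60, 11.76 and 11.72 in sham C57.YA hearts, and of 11.62, 11.85, 11.81 and 11.56 in CX C57BL/6J hearts, against 11.59, 11.39, 11.52 and 11.68 in sham C57BL/6J hearts. Psme1 (ILMN_2986309) had log2 signals of 12.88, 12.83, 12.84 and 12.88 in CX C57.YA hearts, against 12.80, 12.78, 12.96 and 12.88 in sham C57.YA hearts, and of 12.91, 12.92, 12.90 and 12.81 in CX C57BL/6J hearts, against 12.87, 12.77, 12.91 and 12.83 in sham C57BL/6J hearts. Psme2 (ILMN_2731057) had log2 signals of 10.04, 9.96, 9.95 and 10.06 in CX C57.YA hearts, against 9.79, 10.10, 9.95 and 9.65 in sham C57.YA hearts, and of 9.89, 10.11, 9.98 and 10.02 in CX C57BL/6J hearts, against 9.85, 9.98, 9.60 and 9.95 in sham C57BL/6J hearts. Groups overlapped on each, and the castration differences were 0.15, 0.00 and 0.13 in C57.YA and 0.17, 0.04 and 0.16 in C57BL/6J. The value of 0.00 has no settled sign.

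Psme4 encodes the large nuclear activator that degrades acetylated histones. Psme4 (ILMN_2947187) had log2 signals of 13.79, 13.71, 13.75 and 13.75 in CX C57.YA hearts, against 14.05, 13.99, 13.83 and 13.98 in sham C57.YA hearts, and of 13.85, 13.57, 13.78 and 14.03 in CX C57BL/6J hearts, against 14.01, 14.21, 14.16 and 14.05 in sham C57BL/6J hearts. On this second probe CX C57.YA values lay below sham C57.YA values, and CX C57BL/6J values below those of sham C57BL/6J hearts except replicate 4. The differences were -0.22 (SE 0.08, adjusted p = 0.0946) in C57.YA and -0.30 (SE 0.08, adjusted p = 0.0411) in C57BL/6J. In C57.YA the call was lost without any of 13 of 16 arrays (-0.26 to -0.19), in C57BL/6J without CX C57BL/6J replicate 2 or sham C57BL/6J replicate 2 or 3 (-0.38 to -0.22). Psme4 (ILMN_1230087) had log2 signals of 8.63, 8.48, 8.73 and 8.65 in CX C57.YA hearts, against 8.11, 7.75, 8.99 and 9.12 in sham C57.YA hearts, and of 7.80, 7.36, 7.74 and 7.66 in CX C57BL/6J hearts, against 8.03, 8.01, 8.36 and 7.99 in sham C57BL/6J hearts. The first probe was below 0 in C57BL/6J, as the second was, and not in C57.YA. Its sham C57.YA values split between replicates 1 and 2, which were lower, and replicates 3 and 4, and CX C57BL/6J values lay below sham C57BL/6J values. Its castration differences were 0.13 (SE 0.21, adjusted p = 0.738) in C57.YA and -0.46 (SE 0.21, adjusted p = 0.236) in C57BL/6J. This SE rests on the spread of all 4 groups. The SD was 0.67 in sham C57.YA and 0.11 in CX C57.YA hearts, against 0.20 in CX and 0.17 in sham C57BL/6J hearts. So the adjusted p in C57BL/6J does not reflect the spread of that strain alone. Psme3, a nuclear activator of the Psme1 and Psme2 family, averaged 10.11 ± 0.09 in CX C57.YA and 10.30 ± 0.06 in sham C57.YA hearts (SD, n = 4 each) and fell by 0.19 (SE 0.07, adjusted p = 0.0608), a call lost without any of 5 arrays, namely sham C57.YA replicate 1 or 3 or CX C57.YA replicate 2, 3 or 4 (-0.24 to -0.16). In C57BL/6J its difference was -0.13 (SE 0.07, adjusted p = 0.283).

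The assembly chaperones are not part of the finished proteasome. Psmd9 and Psmd10 escort base ATPases. Psmd9 (ILMN_2593662) had log2 signals of 8.29, 8.46, 8.27 and 8.18 in CX C57.YA hearts, against 8.16, 8.05, 7.91 and 8.16 in sham C57.YA hearts, and of 8.06, 8.09, 8.19 and 8.15 in CX C57BL/6J hearts, against 8.07, 8.07, 8.16 and 7.90 in sham C57BL/6J hearts. CX C57.YA values exceeded sham C57.YA values, and C57BL/6J values overlapped. The difference was 0.23 (SE 0.08, adjusted p = 0.0553) in C57.YA, lost as a call without sham C57.YA replicate 2 or 3 or CX C57.YA replicate 2 (0.18 to 0.27), and 0.07 in C57BL/6J. Psmd10 (ILMN_2694080) had log2 signals of 10.07, 10.16, 10.01 and 9.98 in CX C57.YA hearts, against 10.04, 10.02, 9.83 and 9.97 in sham C57.YA hearts, and of 10.22, 10.32, 10.19 and 10.15 in CX C57BL/6J hearts, against 10.04, 10.11, 9.98 and 9.81 in sham C57BL/6J hearts. On this second of 3 Psmd10 probes the C57.YA groups overlapped (0.09), while CX C57BL/6J values exceeded sham C57BL/6J values without overlap (0.23, SE 0.07, adjusted p = 0.0766). That call was lost without CX C57BL/6J replicate 1, 2 or 3 or sham C57BL/6J replicate 3 or 4 (0.17 to 0.28), and the other two probes had 0.25 and 0.14 in C57BL/6J, not called.

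Psmg1, Psmg2 and Psmg3 encode chaperones of the alpha ring. Psmg3 (ILMN_2695599) had log2 signals of 8.54, 8.44, 8.51 and 8.60 in CX C57.YA hearts, against 8.91, 8.77, 8.73 and 8.66 in sham C57.YA hearts, and of 8.49, 8.73, 8.58 and 8.84 in CX C57BL/6J hearts, against 8.66, 8.68, 8.60 and 8.71 in sham C57BL/6J hearts. CX C57.YA values lay below sham C57.YA values without overlap, and C57BL/6J values overlapped. The difference was -0.24 (SE 0.08, adjusted p = 0.0427) in C57.YA and 0.00 in C57BL/6J, and the call was lost without sham C57.YA replicate 1 or CX C57.YA replicate 2 (-0.28 to -0.20). The first Psmg2 probe averaged 10.28 ± 0.11 in CX C57.YA and 10.48 ± 0.05 in sham C57.YA hearts (SD, n = 4 each), with a difference of -0.20 (SE 0.07, adjusted p = 0.0801). Leaving out sham C57.YA replicate 1, 2 or 4 or CX C57.YA replicate 2 or 3 ended this call (-0.23 to -0.15). The second Psmg2 probe ran the other way at 0.06, and Psmg1 had -0.14 in C57.YA and -0.14 in C57BL/6J, none of these called. Psmd5, a chaperone of the base, had 0.11 and 0.14.

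Single arrays and pairs of arrays bore on these counts. So did they on the calls over all probes, given in brackets. In C57.YA the 13 calls (2510) were 7 without sham C57.YA replicate 1 (1987), 6 without CX C57.YA replicate 2 (1932), and 8 without CX C57.YA replicate 3 (2114) or 4 (1996). Without sham C57.YA replicates 1 and 2 there were 3 (1514), with Psma5 and the first Psmd11 probe among the 13 keeping a call, and without replicates 3 and 4 there were 14 (3209). In C57BL/6J the 4 calls (1124) were 7 without sham C57.YA replicates 1 and 2 (1410), which are not among the arrays compared. They were 0 without CX C57BL/6J replicate 2 (835) or sham C57BL/6J replicate 3 (721), 2 without CX C57BL/6J replicate 3 (812) or sham C57BL/6J replicate 2 (923), and 1 without sham C57BL/6J replicate 4 (694). With the mean of the atrial markers as a covariate, which separates CX C57BL/6J from the other groups, none of these 4 was called, and calls over all probes fell to 80, whereas the 13 in C57.YA were called, with 2782 over all probes. The part of atrial, macrophage, smooth muscle or mesothelial cells in the castration differences was otherwise not tested.

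Between sham hearts of the strains 1 proteasome probe was called. There 29 of 53 probes were higher in C57.YA (54.7%, against 49% of all probes), 0 were called higher (against 1.98%) and 1 called lower (1.89%, against 2.31%). With limma 3 of the 53 had an unadjusted p under 0.05, against 2154 of all 12764 probes tested. The probe called was Psma5, with -0.20 (SE 0.06, adjusted p = 0.0976), whose sham C57.YA values lay below those of sham C57BL/6J hearts without overlap. This call lies at the threshold and was lost without any of 13 of the 16 arrays (-0.25 to -0.18). Without sham C57.YA replicates 1 and 2 there were 8 calls, and without replicates 3 and 4 there were 0. Calls over all probes moved alike, with 2041 and 185 in these fits, against 548 with all arrays.

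Between CX hearts of the strains 5 proteasome probes of 4 genes were called, with about as many probes above 0 as below. Of 53 probes 26 were higher in C57.YA (49.1%, against 48.5% of all probes), 4 were called higher (7.55%, against 11.6%) and 1 lower (1.89%, against 11.8%). With median scaling 2 were called higher and 2 lower (all probes 736 and 1353), these being the third Psmd11 probe and the first of Psme4, and both Psmc5 probes. Both Psmd7 probes were higher in CX C57.YA hearts, by 0.41 (SE 0.10, adjusted p = 0.01) and 0.36 (SE 0.07, adjusted p = 0.00316), and so was the third Psmd11 probe, by 0.36 (SE 0.07, adjusted p = 0.00206). As the values above show, CX C57.YA arrays exceeded all CX C57BL/6J arrays on these 3 probes. The first Psme4 probe was higher by 0.98 (SE 0.21, adjusted p = 0.00483), a 1.98-fold difference without overlap, but the second Psme4 probe had -0.06 (SE 0.08, adjusted p = 0.682). These 4 calls were kept without any 1 array, but both Psmd7 calls were lost with median scaling (0.31 and 0.22, adjusted p = 0.136 and 0.189). The first Psmc5 probe was lower in CX C57.YA hearts (-0.21, SE 0.08, adjusted p = 0.0903), a call lost without any of 7 arrays (-0.24 to -0.15), and the second had -0.17. These comparisons hold the CX C57BL/6J arrays with the high atrial markers. With the atrial mean as a covariate none of the 5 probes was called, as was none of all 12764 tested, and the part of atrial cells was otherwise not tested. The castration and strain comparisons share the CX C57.YA arrays, so their calls for Psmd7 and Psmd11 are not separate evidence.

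**Figure D4:**
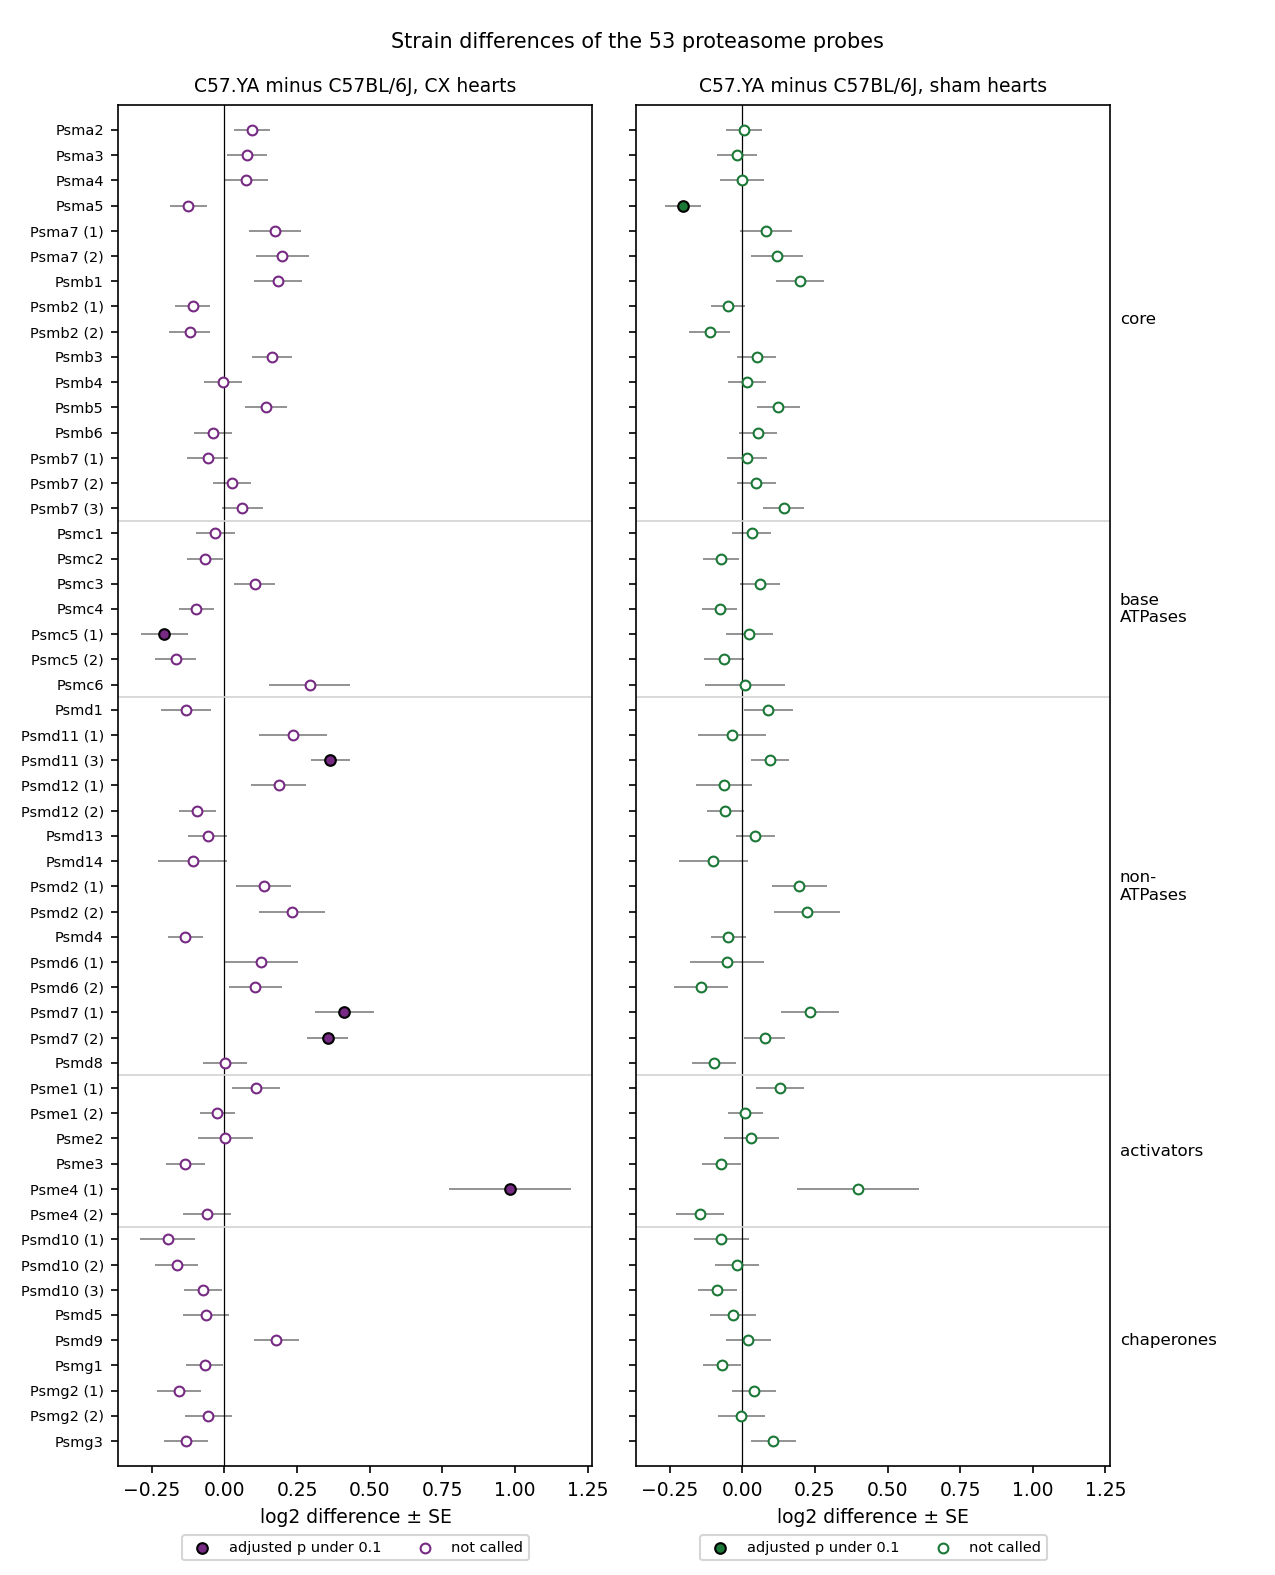
Log2 differences of C57.YA minus C57BL/6J, with SE, of the 53 proteasome probes in CX hearts (left) and sham hearts (right). Filled points were called, and the first Psme4 probe stands apart at 0.98 in CX hearts.

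The difference between strains in the response to castration was tested directly as the interaction. No proteasome probe was called with limma, 0 higher (against 1.5% of all probes) and 0 lower (against 1.39%), while 25 of 53 (47.2%) were above 0, against 50.1% of all probes. Against 1918 of all 12764 probes tested, 3 of the 53 had an unadjusted p under 0.05. These were the third Psmd11 probe at 0.27 (SE 0.09, adjusted p = 0.167), the second Psmd7 probe at 0.28 (SE 0.10, adjusted p = 0.185) and Psmg3 at -0.24 (SE 0.11, adjusted p = 0.308). So the calls of Psmd7 and Psmd11 in C57.YA alone are not shown to differ from the response in C57BL/6J. Without sham C57.YA replicates 3 and 4 the interaction had 4 calls (7.55%), and without replicate 4 alone 1, while calls over all probes were 1705 and 658, against 368 with all arrays.

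The immunoproteasome genes replace the proteolytic subunits when interferon acts, and were measured for comparison. Psmb9 (ILMN_1242466) had log2 signals of 9.27, 9.74, 9.49 and 9.27 in CX C57.YA hearts, against 8.77, 8.96, 9.20 and 8.89 in sham C57.YA hearts, and of 9.25, 9.48, 9.43 and 9.48 in CX C57BL/6J hearts, against 9.05, 9.23, 9.09 and 9.33 in sham C57BL/6J hearts. Psmb8 (ILMN_2693940) had log2 signals of 7.56, 7.58, 7.70 and 7.53 in CX C57.YA hearts, against 7.10, 7.30, 7.39 and 7.25 in sham C57.YA hearts, and of 7.32, 7.33, 7.45 and 7.78 in CX C57BL/6J hearts, against 7.02, 7.20, 7.08 and 7.46 in sham C57BL/6J hearts. CX C57.YA values of Psmb9 and Psmb8 lay above those of sham C57.YA hearts without overlap, and C57BL/6J groups overlapped. Castration raised Psmb9 (0.49, SE 0.11, adjusted p = 0.00472) and Psmb8 (0.34, SE 0.10, adjusted p = 0.0392) in C57.YA, with 0.24 and 0.28 in C57BL/6J, not called. The Psmb10 probes were not called, at 0.12 and 0.18 in C57.YA.

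Among 30 listed genes whose products work with the proteasome, 18 were matched to the array and 15 tested with 20 probes. With castration 1 of the 20 rose and 0 fell in C57.YA (5% and 0%, against 9.55% and 10.1% of all probes), and 1 rose and 1 fell in C57BL/6J (5% each, against 4.1% and 4.71%). These shares do not set the partners apart from all probes. Zfand2a, a stress-induced proteasome binder, rose by 0.28 in CX C57.YA hearts (adjusted p = 0.0227). Nfe2l2, the transcription factor of the oxidative stress response, rose by 0.39 in CX C57BL/6J hearts (adjusted p = 0.0431), and Ubqln4, a shuttle for ubiquitinated proteins, fell by 0.27 (adjusted p = 0.0461). Between CX hearts 3 of 20 were higher in C57.YA and 1 lower (15% and 5%, against 11.6% and 11.8% of all probes), namely Nfe2l1 by 0.20 (adjusted p = 0.0436), the fourth probe of Ube3a, a ubiquitin ligase gene, by 0.35, and Ubqln4 by 0.28, whereas Nfe2l2 was lower (-0.48, SE 0.11, adjusted p = 0.00725). Nfe2l1 (ILMN_1251729) had log2 signals of 13.57, 13.57, 13.55 and 13.55 in CX C57.YA hearts, against 13.46, 13.42, 13.59 and 13.58 in sham C57.YA hearts, and of 13.44, 13.28, 13.31 and 13.39 in CX C57BL/6J hearts, against 13.30, 13.45, 13.34 and 13.51 in sham C57BL/6J hearts. Nfe2l2 (ILMN_1224128) had log2 signals of 8.17, 7.97, 7.92 and 8.17 in CX C57.YA hearts, against 8.17, 8.17, 7.69 and 7.87 in sham C57.YA hearts, and of 8.54, 8.66, 8.57 and 8.36 in CX C57BL/6J hearts, against 8.38, 8.05, 8.13 and 7.99 in sham C57BL/6J hearts. CX C57.YA and CX C57BL/6J arrays did not overlap for either, and sham groups of the strains overlapped. None of the 20 probes was called between sham hearts, where 1 had an unadjusted p under 0.05 (limma), against 2154 of all 12764 probes tested.

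Psmc3ip, a gene of meiotic recombination, and Psme3ip1, whose product binds the Psme3 protein, share the start of the name but encode no subunit. Castration raised Psmc3ip in C57BL/6J by 0.37 (SE 0.07, adjusted p = 0.0056), and the second Psme3ip1 probe was lower in CX C57.YA than in CX C57BL/6J hearts by 0.16 (adjusted p = 0.0854).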

How the data were processed

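RNA of the left ventricle of 16 mice was measured on Illumina MouseRef-8 v2.0 BeadChips. The authors deposited, for each probe and array, the raw bead intensity and a detection p-value, which tells whether the intensity exceeds the negative controls, and in a further table the log2 quantile-normalized signals. The lines of the log2 table the authors deposited were paired with the raw data by value (25697 lines, largest gap 5.43e-06), since 1 line alone carried its own probe name. Intensities were log2-transformed and quantile-normalized without background correction. Of 25697 probes, 12764 with a detection p-value at most 0.04 on at least 2 of 4 arrays of a group were tested with limma 3.58.1 (R 4.3.3), with 1 mean per group over 16 arrays, Benjamini-Hochberg adjustment over all tested probes and a call at an adjusted p under 0.1. Probe names came from the platform annotation with current symbols (23962 probes, none with several genes, 1719 unnamed).

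Values on every array were given for members called in at least 1 comparison (at most 8 per comparison, by size), for Psmb5, Psmb6, Psmb7, Psme1 and Psme2, and ranges or counts for the rest. Members and lists were chosen with earlier results of these data known. On simulated data for castration in C57.YA (12764 probes), the test recovered 58.2% of 67 probes changed by 0.3 on the log2 scale, 97% of 67 at 0.6 and 98.5% of 66 at 1. Noise was drawn independently for each array, and all other probes were unchanged. In the measured data 2510 probes were called, so these shares do not give the sensitivity there. With 1 mouse per array the p-values measure the spread between mice, and the number of arrays limits the precision. The BeadChip of each array is not given in the sources used here and was not tested as a batch. The bead-statistic columns (32) were not used. Alternatives were the neqc background correction, the authors' table, median scaling, other detection filters, an adjusted p under 0.05, the replicate number as a block, the 8 arrays of a comparison alone, the atrial marker mean as a covariate, leaving out each array, and leaving out pairs of sham C57.YA arrays.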

Additional observations from a re-analysis of the deposited data

Results flagged for a closer look

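Among 100 groups of 4 arrays of the named probes, 4 held a mouse far from the other 3 by Dixon's gap over range, and chance alone gives about 1 in 20. On the second Psmb7 probe sham C57.YA replicate 4 had a log2 signal of 13.16, against 13.25 to 13.26 in the other sham C57.YA hearts. For Psmc6, CX C57.YA replicate 2 had 8.487, against 8.154 to 8.194. On the first Psme4 probe sham C57BL/6J replicate 3 had 8.355, against 7.987 to 8.032. On the first Psmg2 probe CX C57BL/6J replicate 1 had 10.26, against 10.48 to 10.52.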

How the results depend on the processing

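Of 23 calls of single probes over the comparisons, 8 were kept without any 1 array and 15 were lost without at least 1. The castration differences of named probes that were not called passed the threshold in 5 of 432 alternatives. Counts of called probes, of 53, ranged without 1 array from 6 to 13 for castration in C57.YA, from 0 to 5 in C57BL/6J, from 0 to 2 between sham hearts, from 4 to 7 between CX hearts and from 0 to 1 for the interaction. For castration in C57.YA (13 calls) there were 8 with median scaling, 8 with no detection filter, 7 at an adjusted p under 0.05 and 3 without sham C57.YA replicates 1 and 2. For castration in C57BL/6J (4) there were 1 with median scaling, 1 with no filter, 2 at an adjusted p under 0.05, 2 with the 8 arrays of the comparison alone, 0 with the atrial marker mean as a covariate and 7 without sham C57.YA replicates 1 and 2. Of the 4 main calls 3 were higher and 1 lower, but those with no filter and with the 8 arrays alone were all lower. Between sham hearts (1) there were 0 with neqc, median scaling, no filter, an adjusted p under 0.05, 8 arrays alone or without sham C57.YA replicates 3 and 4, and 8 without replicates 1 and 2. Between CX hearts (5) there were 0 with the atrial covariate, 8 without sham C57.YA replicates 1 and 2 and 9 without replicates 3 and 4, and for the interaction (0) 4 without replicates 3 and 4. The cause was not tested. With median scaling 2 of the 53 were called higher and 2 lower between CX hearts (all probes 736 and 1353).

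With median scaling the core median was 0.169 for castration in C57BL/6J, -0.0471 between sham hearts and -0.0425 between CX hearts, and the regulatory median -0.0754 between sham and -0.0602 between CX hearts. The median of all probes moved in the same direction, to 0.0582 for castration in C57.YA, 0.0412 in C57BL/6J, -0.0596 between sham and -0.0413 between CX hearts. With the atrial covariate the core median was 0.0344 for castration in C57BL/6J and 0.172 between CX hearts, and the regulatory median between CX hearts was -0.018. That regulatory median was 0.00114 with no filter and 0.00114 at a detection p at most 0.01. Signs were reversed with the atrial covariate for castration in C57BL/6J of Psmc5 (-0.00653), Psme4 (0.216), Psmb5 (-0.27), Psmb6 (-0.00728), the second Psmb7 probe (-0.124), Psme1 (-0.0445 and -0.0788) and Psme2 (-0.0186), and between CX hearts of Psmc5 (0.0244). For castration in C57BL/6J these reversed values had adjusted p from 0.642 to 0.996 (limma). The covariate separates CX C57BL/6J from the other groups, so it cannot be told apart well from castration in that strain. Their signs are therefore not settled. The second Psme1 probe for castration in C57.YA was -0.00463 with that covariate, -0.0631 without sham C57.YA replicates 1 and 2, and -0.0226 to 0.0371 without 1 array.

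The labels do not say that equal replicate numbers share an origin, and the numbers were not taken as pairs in the main fit. Not every same-numbered pair correlated above 0.1, but a shared origin need not bring every pair above it. Whether equal numbers share an origin was not tested. Same-numbered arrays correlated with r from -0.0856 to 0.204 (median 0.0935, 8 of 24 over 0.1), against a median of -0.0207 for other numbers (10 of 72 over 0.1), and 7 of 16 arrays correlated best with their own number. With the replicate number as a block there were 11 calls for castration in C57.YA, 5 in C57BL/6J, 1 between sham hearts, 7 between CX hearts and 0 for the interaction.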
